A study of Mus musculus with 39 samples.

Results

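The genes of the voltage-gated and potassium channels were examined in nuclei that had been isolated from the mouse neocortex in 2 ways. They were taken as every gene symbol of the RNA-seq tables that begins with Kcn or Cacn, or that reads Scn, a number and then a or b. Kcnq1ot1 and the antisense genes that end in os were left out. This gave 133 of the 24421 genes in the tables, of which 94 were potassium, 26 calcium and 13 sodium channel genes. Scn2a1, the older symbol of a main sodium channel of excitatory neurons, falls outside the pattern of the symbols and is given separately. The rule used the symbols alone and no measured value.

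The nuclei came from adult male and female mice that carried Arc creERT2 (TG/WT) together with R26 CAG-Sun1-sfGFP-Myc, either as M/WT or as M/M, and all groups share this background. In these mice the Arc promoter drives a Cre recombinase that tamoxifen activates. Cells that express Arc around a social interaction therefore mark their nuclear membrane with a green fluorescent Sun1 protein (sfGFP). Both techniques thus draw on Arc-expressing cells, and the paper regards most marked nuclei of the neocortex as likely to be from excitatory neurons. No group of unsorted or untreated nuclei was part of the comparison. INTACT captured sfGFP+ nuclei on beads that carried an antibody to the tag, and FANS sorted them by flow cytometry. Nuclear RNA was sequenced from 10000 nuclei a library in 3 batches. There were 4 FANS libraries in batch 1 and 7 each in batches 2 and 3, and INTACT contributed 4, 4 and 5 libraries, respectively. Each batch was a distinct biological source, so the p-values within a batch measure the spread between its libraries, which may be technical. ATAC-seq, which marks open chromatin by the insertion of a transposase, was performed on 3 FANS and 3 INTACT libraries of 50000 nuclei each, all from the same biological source.

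Voltage-gated channels open and close with the membrane potential. Sodium channels carry the rising phase of the action potential, potassium channels end it and set the resting potential and the firing pattern, and calcium channels turn depolarization into calcium entry that drives transmitter release and gene regulation. Each pore-forming subunit works with accessory subunits, such as the beta subunits of sodium channels, the KChIP proteins of A-type potassium channels and the alpha2delta subunits of calcium channels. Many of the pore genes in brain are very long, with introns that make up most of the transcribed length, and nuclear RNA holds much unspliced transcript.

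Between 4205665 and 11028711 reads fell on genes per RNA library. In batch 1, the INTACT libraries held 8621143 to 11028711 such reads and the FANS libraries 4853224 to 6066759, and the share of all reads outside gene features was 71.3 to 72.7% in INTACT and 79.4 to 81.7% in FANS. In batches 2 and 3 the 2 techniques differed less in this share, with 77.4 to 78.9% against 79.4 to 81.6% and with 81.9 to 83.0% against 80.0 to 85.1%. In batch 1, the excitatory neuron marker Slc17a7 reached a mean normalized count of 1746 with FANS and 2462 with INTACT, whereas the inhibitory marker Gad1 stood at 99.0 and 128 and the endothelial marker Cldn5 at 0 and 0.953. Slc17a7 is 1 of 8 excitatory markers examined, of which 3 were higher in INTACT, and 2 rose and 2 fell at an adjusted p-value under 0.05 in limma. Summed over the 8, the FANS libraries of batch 1 held 10248 to 10498 normalized counts and the INTACT libraries 9797 to 10333. The nuclei thus carried the markers of excitatory neurons at a high level, together with glial RNA. Summed over the 9 oligodendrocyte markers, the FANS libraries of batch 1 held 6363 to 7933 normalized counts and the INTACT libraries 10238 to 10804. In bulk nuclei, fewer cells of a type and less RNA per cell cannot be told apart.

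The channel genes held a small and similar share of the gene reads with both techniques. FANS libraries gave them 1.28% ± 0.038 (SD, n = 4), 1.42% ± 0.069 (n = 7) and 1.52% ± 0.071 (n = 7) of gene reads in batches 1, 2 and 3. INTACT libraries gave them 1.28% ± 0.0051 (SD, n = 4), 1.44% ± 0.066 (n = 4) and 1.49% ± 0.023 (n = 5). In every batch the library ranges of the techniques overlapped. Each library had at least 1 read on 115 to 125 of the 133 genes. A mean normalized count of at least 5, the minimum for testing, was reached by 107 genes in batch 1, 106 in batch 2 and 103 in batch 3. The 26 genes below it in batch 1 included the skeletal muscle sodium channel Scn4a, the sensory neuron channels Scn10a and Scn11a, the vascular potassium channel Kcnj8 and 4 of the 5 Kcne genes.

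To set levels of different genes side by side, normalized counts were divided by the length of the merged exons in kb. On this scale a calcium channel subunit stood highest. Cacna2d1, an alpha2delta subunit and the target of gabapentin, had 668 ± 14.4 normalized counts per kb in FANS and 806 ± 13.5 in INTACT in batch 1 (SD, n = 4 each), and it ranked highest of the 133 genes in every batch. Kcnma1, the large-conductance calcium-activated channel, followed in batch 1 with 635 ± 33.0 and 512 ± 18.9 per kb, Cacna1e, the R-type calcium channel pore, with 577 ± 17.4 and 545 ± 13.97, and Kcnh7, an ERG-type channel, with 567 ± 32.3 and 509 ± 7.27. The order of Kcnma1, Cacna1e and Kcnh7 changed between batches, and their library ranges overlapped in batch 1.

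Below them, the sodium channel pores Scn8a and Scn1a had 481 and 475 normalized counts per kb over the 8 libraries of batch 1, next to the P/Q-type calcium channel Cacna1a with 475. Their library ranges overlapped, with 447 to 514 for Scn8a, 466 to 488 for Scn1a and 439 to 503 for Cacna1a. Scn3a, the embryonic sodium channel, stood at 206 per kb. All of these lay above the 90th percentile among the genes tested except Scn3a, and Cacna2d1 lay at the 98.7th percentile. Across the 133 genes, the levels per kb of batches 1 and 2, 1 and 3, and 2 and 3 had Spearman correlations of 0.996, 0.992 and 0.992, a description over genes that share their annotation.

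**Figure D1:**
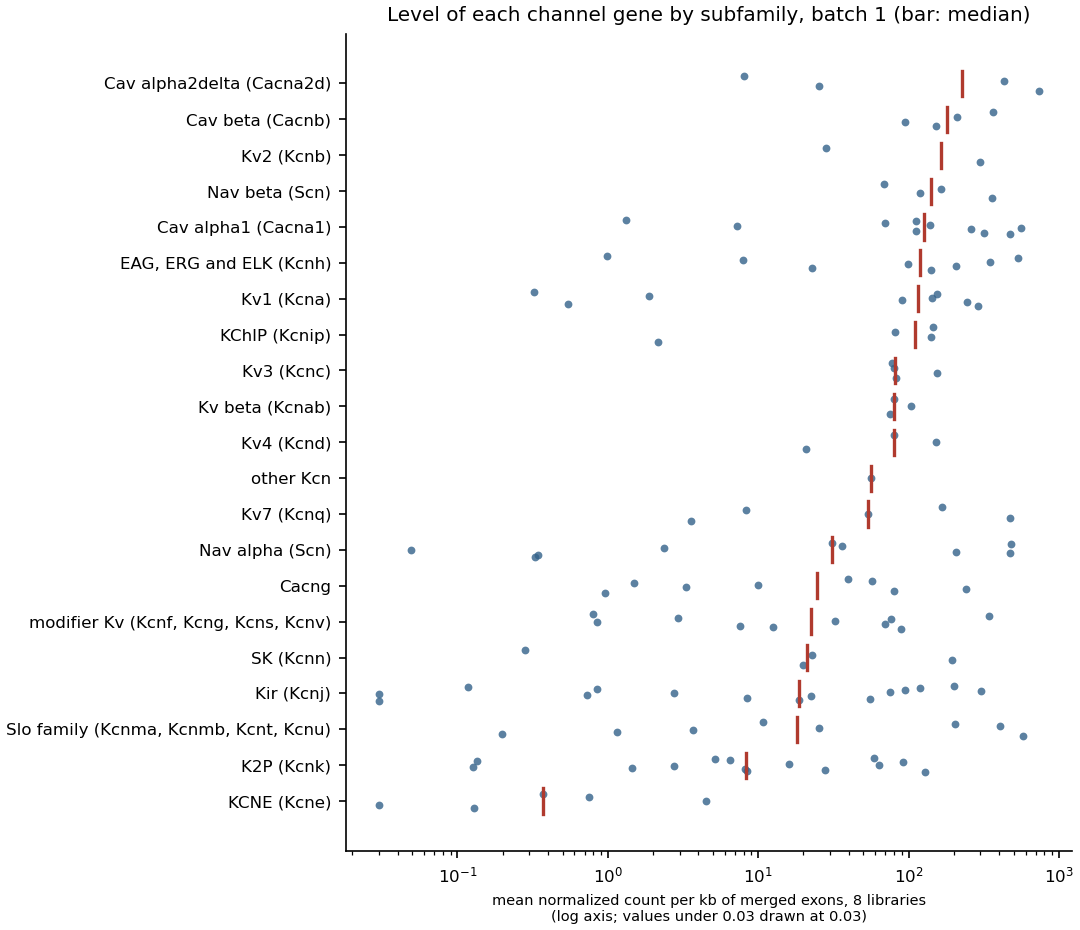
Mean normalized count per kb of merged exons of each of the 133 channel genes over the 8 libraries of batch 1, on a log axis, with 1 point per gene, 1 row per subfamily and a bar at the median of the subfamily. The alpha2delta subfamily had the highest median, 227 per kb, and the Kcne subfamily the lowest, 0.373 per kb.

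Levels varied widely within subfamilies. The 15 inwardly rectifying channels (Kcnj) had a median of 18.6 normalized counts per kb in batch 1 and ran from 0 for Kcnj1, a kidney channel, to 306 for Kcnj3, a subunit of the G protein-gated channels of neurons. Its partners Kcnj9 and Kcnj6 stood at 201.2 and 119 per kb. The glial Kcnj10 and Kcnj16 stood at 18.6 and 2.76, and Kcnj8, which marks pericytes, at 0.118. The 14 two-pore leak channels (Kcnk) had a median of 8.30 and were led by Kcnk1 with 128. Among the delayed rectifiers and A-type channels, Kcna1 had 288, Kcna2 245, Kcnc2 156 and Kcnd2 152 normalized counts per kb. The silent subunit Kcnv1, which has no current of its own, had 343 per kb. The 4 Kv3 pores (Kcnc) spanned only 77.3 to 156, whereas the 9 sodium channel pores spanned 0.0493 to 481.

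**Figure D2:**
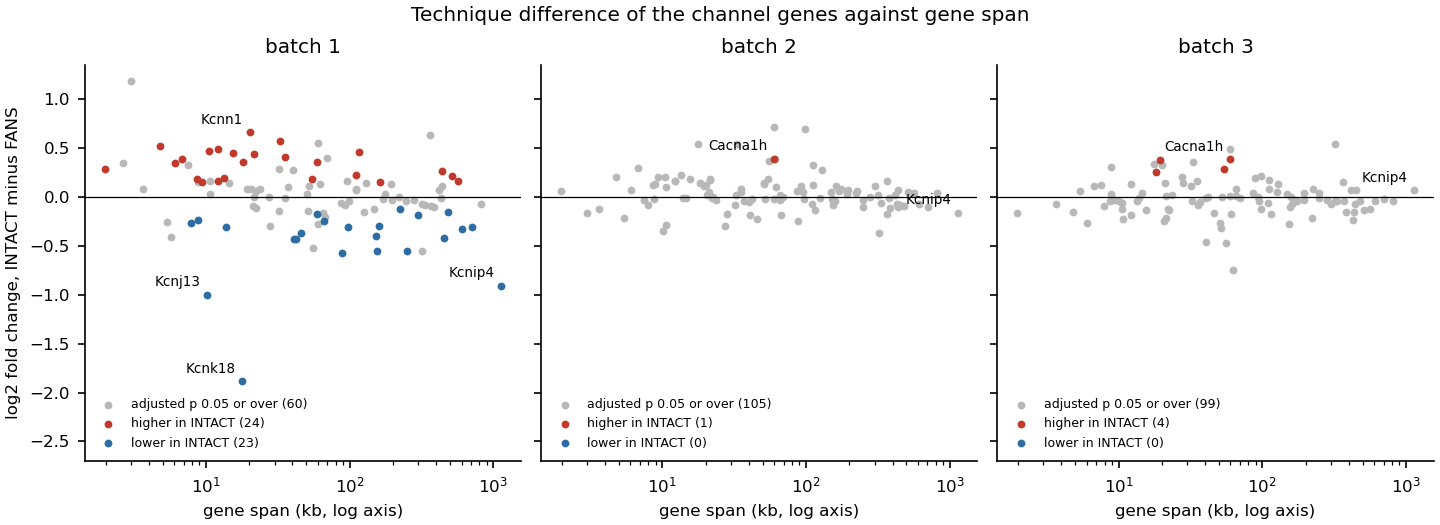
Log2 fold change between techniques (INTACT minus FANS) of each channel gene tested in each batch against its genomic span in kb on a log axis, colored by the direction of the genes with an adjusted p-value under 0.05 in limma. In batch 1, 24 genes were higher and 23 lower in INTACT, and Kcnip4, the longest gene, lay far below 0, whereas in batches 2 and 3 nearly all genes lay close to 0.

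The techniques were compared within each batch with limma on log2(normalized count + 1), with p-values adjusted by Benjamini-Hochberg over all genes tested. A fold change on this scale understates the change of genes with low counts. In batch 1, 24 channel genes were enriched and 23 depleted in INTACT at an adjusted p-value under 0.05, 22.4% and 21.5% of the 107 tested. Over all 15114 genes tested, 18.6% were enriched and 17.5% depleted. In either direction these were 43.9% of the channel genes and 36.1% of all genes. With a change of at least 1.5-fold in addition, 1 channel gene was enriched and 3 were depleted, against 4.03% and 3.94% of all genes, or 3.74% against 7.97% in either direction. The median log2 fold change of the channel genes was 0.01, as for all genes, and their median absolute change was 0.18 against 0.22. The differences were therefore frequent but small. The higher number of reads on genes and the lower share outside gene features of the INTACT libraries of batch 1 cannot be told apart from the technique.

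Among sodium channels in batch 1, 4 of 10 genes rose and 1 fell in INTACT, against 18.6% and 17.5% of all genes. Of the 4, Scn7a lost its call without any 1 of FANS replicates 1 and 4 and INTACT replicates 1 to 4. Quantile normalization ended it too. Scn2b and Scn4b, accessory beta subunits that modulate gating of the pore, were among those that rose. Scn2b had normalized counts of 414, 448, 452 and 486 in the FANS libraries and of 641, 629, 657 and 606 in the INTACT libraries of batch 1. Every INTACT library lay above every FANS library, and the log2 fold change was 0.49 (SE 0.06, adjusted p = 9.96e-07). The gene lies inside Gm10684 on the opposite strand. Scn4b rose by 0.46 (SE 0.10, adjusted p = 0.00075). The pores varied in direction. Scn1a and Scn8a had log2 fold changes of -0.02 and 0.03 (adjusted p = 0.795 and 0.663). Scn9a, a channel best known from pain-sensing neurons, fell by 0.55 (SE 0.09, adjusted p = 1.33e-05). Scn2a1 rose from 5400 ± 393 to 7093 ± 68.6 normalized counts (SD, n = 4 each), with a log2 fold change of 0.40 (SE 0.05, adjusted p = 1.9e-07). When Scn2a1 was added to the channel genes, the difference in their share of gene reads in batch 1 turned from -0.00145 to 0.0232 percentage points.

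Among calcium channels in batch 1, 4 of 24 genes rose and 6 fell, against 18.6% and 17.5% of all genes. Of the 4, Cacna2d4 and Cacnb3 rested on single libraries, since both lost their call without any 1 of FANS replicates 1 and 4 and INTACT replicates 1, 3 and 4. Of the 10 pore genes, 5 fell, namely Cacna1a, Cacna1b, Cacna1c, Cacna1d and Cacna1g, and 1 rose, Cacna1h. The median span of these 10 genes was 135 kb. Of all genes in batch 1, 20.7% of those of 20 to 100 kb fell, 33.8% of 100 to 300 kb and 46.9% over 300 kb. Cacna1d, an L-type pore, had normalized counts of 2634, 2701, 2886 and 2853 in FANS and of 2139, 2072, 2085 and 2002 in INTACT. All INTACT libraries were lower, and the gene fell by 0.42 on the log2 scale (SE 0.04, adjusted p = 7.85e-08). The L-type pore Cacna1c fell by 0.33 (SE 0.05, adjusted p = 3.24e-06), the N-type pore Cacna1b by 0.30 (SE 0.04, adjusted p = 3.01e-06), and Cacna1a by 0.12 (SE 0.04, adjusted p = 0.0196). The call of Cacna1a depended on 3 libraries, since FANS replicate 2 and INTACT replicates 3 and 4 each ended it when left out, and quantile normalization ended it too. Cacna1e, the most abundant pore, had a log2 fold change of -0.08 (SE 0.04, adjusted p = 0.104). The alpha2delta subunit Cacna2d1 moved the other way, with 4975, 4955, 4937 and 5169 in FANS and 6020.4, 5977, 5975 and 6189 in INTACT, a log2 fold change of 0.27 (SE 0.04, adjusted p = 4.55e-06). The groups were widely separated relative to their spread. Cacng3, which guides AMPA receptors, fell by 0.31 (SE 0.07, adjusted p = 0.00144), and Cacnb4 and Cacna2d3 had values of -0.04 and -0.07 (adjusted p = 0.545 and 0.282). The L-type pores Cacna1f and Cacna1s had low counts and values of -0.29 and -0.20 (adjusted p = 0.295 and 0.783). Exons on the opposite strand overlap Cacnb4 by 3530 bases, Cacna1c by 883, Cacna1d by 526, Cacna1g by 282 and Cacna1a by up to 587 with a single gene, and Scn9a, Kcnh7, Kcnq3 and Kcnn2 by up to 319. The strand setting of the counting is not given in the sources used here, so the reads of such partners cannot be told apart.

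Among potassium channels in batch 1, 16 of 73 genes rose and 16 fell, against 18.6% and 17.5% of all genes. The largest change in an abundant gene was that of Kcnip4, a KChIP protein that slows A-type channels and that spans 1135 kb. Its normalized counts were 584, 581, 711 and 585 in FANS and 311, 329.65, 317 and 351 in INTACT. The lowest FANS library was far above the highest INTACT library, and the gene fell by 0.91 (SE 0.07, adjusted p = 7.19e-10). Its exons share 114 bases with another gene on the opposite strand. The G protein-gated channel Kcnj6 had 1059, 918, 948 and 1025 in FANS and 776, 666, 647 and 610.1 in INTACT, also without overlap, and fell by 0.55 (SE 0.07, adjusted p = 4.2e-07). Its partner Kcnj9 was also called lower, with log2 fold changes from -0.28 to -0.17 over 17 alternative runs. The partner Kcnj3 rose by 0.15 (SE 0.05, adjusted p = 0.0121), so the subunits of this channel did not all move together. The Kv3 pore Kcnc1, which allows fast firing, fell by 0.43 (SE 0.06, adjusted p = 4.72e-06), the leak channel Kcnk9 by 0.43 (SE 0.07, adjusted p = 5.93e-05) and Kcnma1 by 0.31 (SE 0.04, adjusted p = 4.76e-06). Kcnh7 and Kcnq3 fell by 0.15 and 0.18, whereas Kcnq5 rose by 0.17. Leaving out FANS replicate 3 or INTACT replicate 1 ended the call of Kcnq5, and FANS replicates 3 and 4 and INTACT replicates 2 and 4 each decided that of Kcnq3.

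Of 8 silent or modifier subunits tested, 3 rose and 1 fell, and of 6 Kv1 genes Kcna1, Kcna2 and Kcna3 rose and 1 fell, against 18.6% and 17.5% of all genes. The genes that fell were the silent subunit Kcng3, by 0.37 (SE 0.10, adjusted p = 0.00382), and the Kv1 pore Kcna4, by 0.27 (SE 0.06, adjusted p = 0.000784). Kcnf1, a silent subunit, had 329, 341, 334 and 399 in FANS and 495, 471, 541 and 509.65 in INTACT in batch 1. The log2 fold change was 0.52 (SE 0.07, adjusted p = 2.98e-06), without overlap. Kcna1 and Kcna2, the pores of the axonal Kv1 channels, rose by 0.15 and 0.20 (adjusted p = 0.0163 and 0.00531), and Kcnk1 rose by 0.41 (SE 0.09, adjusted p = 0.000999). Leaving out either FANS replicate 3 or INTACT replicate 1 ended the calls of both Kcna1 and Kcna3. Kcnd2, the A-type pore of dendrites, rose by 0.21 (SE 0.07, adjusted p = 0.012), and not past the threshold without FANS replicate 1. Kcnc2, Kcnn2 and Kcnab1 had values between -0.03 and 0.08 and adjusted p-values of 0.31 to 0.918.

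The other members past 1.5-fold in batch 1 had low counts. Kcnn1, a small-conductance calcium-activated channel, had normalized counts of 27.0, 65.0, 53.15 and 65.7 in FANS and of 81.3, 74.96, 85.7 and 77.3 in INTACT. It rose by 0.67 (SE 0.20, adjusted p = 0.0116), and by 0.38 (adjusted p = 0.0487) without FANS replicate 1, its lowest library. Kcnj13 had 83.6, 93.2, 110.4 and 81.0 in FANS against 42.4, 42.8, 56.45 and 41.0 in INTACT and fell by 1.00 (SE 0.16, adjusted p = 1.72e-05). This gene lies wholly inside Gigyf2 on the opposite strand, so its reads and those of its host cannot be told apart here. Kcnk18, the TRESK leak channel, had 11.6, 12.3, 10.9 and 19.9 in FANS against 5.19, 3.06, 1.99 and 1.98 in INTACT, a fall by 1.88 (SE 0.42, adjusted p = 0.000918), and by 1.20 with a pseudocount of 5. Its INTACT mean of 3.06 lies below the minimum of 5, so the gene was tested through its FANS level alone, which favours a gene that is lower in INTACT, and its place among the 3 depleted genes is a description.

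Kcnj10, the inward rectifier of astrocytes and oligodendrocytes, had normalized counts of 72.0, 94.4, 61.3 and 97.8 in FANS and of 119, 113, 128 and 116 in INTACT in batch 1. Its log2 fold change was 0.57 (SE 0.14, adjusted p = 0.00224) in batch 1, 0.54 (SE 0.14, adjusted p = 0.0513) in batch 2 and 0.36 (SE 0.23, adjusted p = 0.524) in batch 3. Of 9 astrocyte markers, 6 rose in INTACT in batch 1 and 2 in batch 2, and of 9 oligodendrocyte markers 7 and 4 rose. In batch 3 the lowest adjusted p in limma was 0.396 among the astrocyte and 0.0532 among the oligodendrocyte markers. In batch 1, the summed astrocyte markers were 6560.3 to 7256 normalized counts for FANS and 8130.0 to 8315 for INTACT, and in batch 3 they were 5655 to 7479 against 6109 to 6799.7. The part of glial RNA in the value of Kcnj10 was not tested. Kcnj16, Kcnk13 and Kcnj8, which mark glia or pericytes, had low counts, and the tested values of Kcnj16 and Kcnk13 did not pass the threshold in any batch.

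Gene span moved with the difference in batch 1 for channel genes as for all genes. The tested channel genes were longer than other genes, with a median span of 59.5 kb against 22.1 kb. Of the 28 channel genes under 20 kb in batch 1, 12 rose and 5 fell, with a median log2 fold change of 0.17. Of all genes in this class, 26.4% rose and 8.96% fell. Of the 19 over 300 kb, 3 rose and 6 fell, with a median of -0.08, whereas 7.92% of all genes of this class rose and 46.9% fell. For all genes, the medians of these classes were 0.14 and -0.20. Across the channel genes, the Spearman correlation of the log2 fold change with span was -0.30 in batch 1 (107 genes), -0.20 in batch 2 (106 genes) and -0.03 in batch 3 (103 genes). Across all genes it was -0.30, -0.14 and -0.03. With the longest transcript in place of the genomic span, the value for the channel genes in batch 1 was -0.11 and in batch 2 -0.0481. The value of batch 3 was -0.113 without FANS replicate 2 and had the opposite sign without FANS replicate 7 (0.036) or INTACT replicate 2 (0.02). These are descriptions over genes of the same libraries. Among the 4 longest genes, Kcnip4, Kcnma1 and Cacna1c fell, whereas Cacna2d3, with 817 kb, had a log2 fold change of -0.07. Of the 4 shortest genes tested, Kcna3 with 1.97 kb rose by 0.29 (adjusted p = 0.0343), a call that ended when any of FANS replicates 1 to 3 or INTACT replicates 1 to 3 was left out. Kcnk7, Kcna5 and Kcnj11 did not pass the threshold.

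In batches 2 and 3 few channel genes differed between techniques. In batch 2, 1 of 106 was enriched, 0.943% against 0.834% of all genes, and 0 were depleted, against 0.309%. In batch 3, 4 of 103 were enriched, 3.88% against 1.18% of all genes, and 0 were depleted, against 0.519%. In either direction the genome-wide shares were 1.14% in batch 2 and 1.7% in batch 3. Neither edgeR nor DESeq2 called a depleted channel gene in these batches. With the replicate number as a block, limma called 7 enriched and 6 depleted channel genes in batch 3, with 1102 of all 14440 genes called. Without FANS replicate 4 or 7 it called 1 depleted gene there. An unadjusted p under 0.05 in limma was found for 14 higher and 6 lower channel genes in batch 2. In batch 3 it was found for 6 higher and 8 lower. DESeq2 called 4 enriched genes in batch 2. No channel gene passed 1.5-fold with limma, edgeR or DESeq2 in either batch. Of all genes, limma placed 0.0941% above and 0.0336% below in batch 2, or 0.128% in either direction, and 0.0139% above and 0.346% below in batch 3, or 0.36% in either direction.

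Cacna1h, the T-type calcium channel pore that opens near the resting potential, was the channel gene called higher in INTACT in all 3 batches. In batch 1 its normalized counts were 532, 508, 491 and 495 in FANS and 661, 642, 639.6 and 658 in INTACT. In batch 2 the FANS libraries ran from 434 to 557 with a median of 497, and the INTACT libraries had 649.5, 657, 618 and 654. In batch 3 the FANS libraries ran from 192 to 270.5 with a median of 227, and the INTACT libraries had 313, 290.0, 289, 306 and 324. The techniques did not overlap in any batch. The log2 fold changes were 0.36 (SE 0.06, adjusted p = 2.36e-05), 0.39 (SE 0.07, adjusted p = 0.0034) and 0.39 (SE 0.08, adjusted p = 0.00649). Groups without overlap were seen for 33.6% of all genes tested in batch 1, 2.99% in batch 2 and 1.59% in batch 3. The exons of Cacna1h share 156 bases with Tpsg1 and 303 with Gm33617, both on the opposite strand.

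Kcnt1, the sodium-activated potassium channel, had 2378, 2409, 2514 and 2143 normalized counts in FANS and 2694, 2731, 2653 and 2647 in INTACT in batch 1. In batch 2 it ran from 1752 to 2142 in FANS with a median of 2018 and had 2231, 2114, 2371 and 2422 in INTACT. In batch 3 it ran from 1288 to 1535 in FANS with a median of 1432 and had 1646, 1676, 1936, 1745 and 1757 in INTACT. The techniques overlapped in batch 2 alone. The log2 fold changes were 0.19 (SE 0.05, adjusted p = 0.00316), 0.18 (SE 0.06, adjusted p = 0.0969) and 0.29 (SE 0.05, adjusted p = 0.00219). The ELK-type channel Kcnh3 was enriched in batches 1 and 3, with values of 0.36 (SE 0.07, adjusted p = 0.000133) and 0.26 (SE 0.06, adjusted p = 0.018), against 0.14 (SE 0.06, adjusted p = 0.206) in batch 2. Its relative Kcnh4 was enriched in batch 3, with 0.38 (SE 0.09, adjusted p = 0.0154). In batch 3, Kcnh3 was not called without INTACT replicate 3 or 5 and Kcnh4 not without INTACT replicate 1, 3 or 5.

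**Figure D3:**
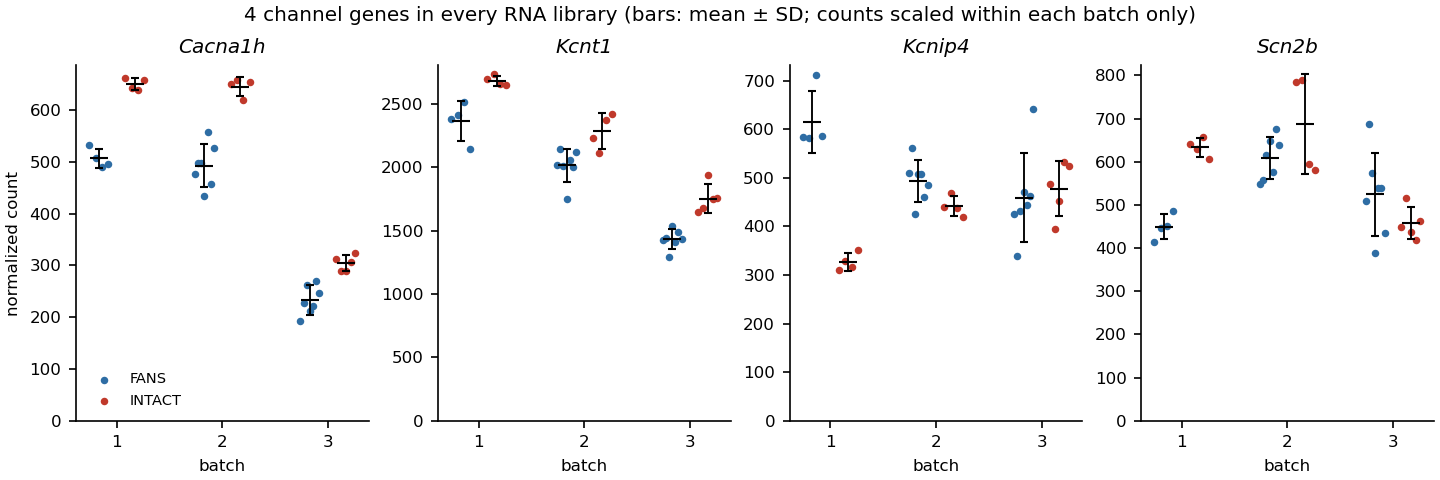
Normalized counts of Cacna1h, Kcnt1, Kcnip4 and Scn2b in every RNA library by batch and technique, with 1 point per library and bars for the mean and SD. Counts are scaled within a batch only. Cacna1h was higher in INTACT in each batch, the libraries of Kcnip4 and of Scn2b were separated by technique in batch 1 and overlapped in batches 2 and 3.

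The effect of technique was then compared between batches with an interaction term in limma, for the 103 channel genes with a sufficient mean in all 3 batches. Between batches 1 and 2, 8 channel genes differed, 7.77% against 6.3% of all genes, and all 8 had a lower value in batch 1. Between batches 1 and 3, 27 differed, 26.2% against 23.3% of all genes, of which 16 had a lower and 11 a higher value in batch 1. Between batches 2 and 3, limma called 0 channel genes and 0 of all genes, and an unadjusted p under 0.05 was found for 13 channel genes with a higher and 2 with a lower value in batch 2. These comparisons share the libraries of a batch with each other. The paper describes batch 1 as its batch of high RNA integrity, with lower values in batches 2 and 3. RNA integrity and other traits of a batch cannot be told apart here.

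Kcnip4 had normalized counts of 425 to 562 in FANS and 440.15, 468, 438 and 419 in INTACT in batch 2, and of 338 to 642 in FANS and 487, 395, 451, 532 and 524 in INTACT in batch 3. The groups overlapped in both. Its log2 fold changes were -0.91, -0.16 and 0.07 in batches 1, 2 and 3, with differences of -0.75 (SE 0.14, adjusted p = 0.000457) between batches 1 and 2 and of -0.98 (SE 0.14, adjusted p = 8.72e-07) between batches 1 and 3. For Kcnj6 the differences were -0.45 (SE 0.10, adjusted p = 0.00226) and -0.59 (SE 0.10, adjusted p = 1.01e-05), and for Kcnc1 -0.42 (SE 0.10, adjusted p = 0.00677) and -0.43 (SE 0.10, adjusted p = 0.000942). The pores Cacna1b, Cacna1c and Cacna1d differed in both comparisons as well. Of the genes that had risen in batch 1, several differed between batches 1 and 3. The difference was 0.67 (SE 0.14, adjusted p = 0.000254) for Scn2b, 0.67 (SE 0.16, adjusted p = 0.00126) for Kcnf1 and 0.34 (SE 0.07, adjusted p = 0.000264) for Cacna2d1.

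**Figure D4:**
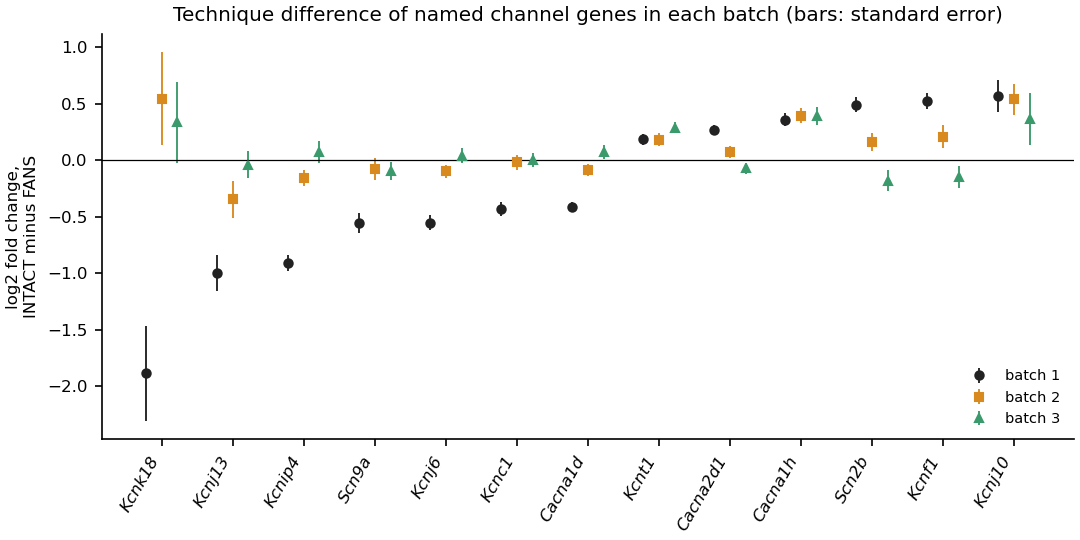
Log2 fold change (INTACT minus FANS) with its standard error in each of the 3 batches for 13 named channel genes, ordered by their value in batch 1. Cacna1h, Kcnt1 and Kcnj10 had positive values in each batch, whereas Kcnip4, Kcnj6, Kcnc1 and Cacna1d were called lower in batch 1 and lay between -0.16 and 0.07 in batches 2 and 3.

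Side by side, the log2 fold changes of batches 1 and 2 had the same sign for 70 of the 105 channel genes tested in both, with a Spearman correlation of 0.49 against 0.44 over all genes. For batches 1 and 3 the sign was shared by 49 of 103, with a correlation of -0.03 against -0.05. For batches 2 and 3 it was shared by 51 of 103, with 0.08 against 0.09. These batches share no library, and the values are given as descriptions over genes.

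Proteins that work with the channels but carry other names were taken from a list of 31 genes, of which 29 were tested in each batch. In batch 1, 7 rose and 10 fell, against 18.6% and 17.5% of all genes. The anchors of the axon initial segment, where sodium and Kv7 channels gather, all fell, with -0.19 (SE 0.04, adjusted p = 0.00114) for Ank3, -0.19 (SE 0.04, adjusted p = 0.00122) for Ank2, -0.26 (SE 0.04, adjusted p = 5.52e-05) for Sptbn4 and -0.14 (SE 0.04, adjusted p = 0.0146) for Nfasc. In batch 2 they had values of -0.07, -0.02, 0.14 and 0.14 in this order (adjusted p = 0.529, 0.896, 0.235 and 0.189). The pacemaker channel Hcn2 rose by 0.27 (SE 0.11, adjusted p = 0.0493). The sodium leak channel Nalcn rose by 0.28 (SE 0.06, adjusted p = 0.000449), whereas its subunits Unc79 and Fam155a fell by 0.35 and 0.38. In batch 2, 1 of the 29 rose and 2 fell, against 0.834% and 0.309% of all genes. Fgf14, which binds the tail of sodium channels, fell by 0.65 (SE 0.08, adjusted p = 4.22e-07) in batch 1 and by 0.37 (SE 0.07, adjusted p = 0.00647) in batch 2, and had a value of -0.10 (adjusted p = 0.604) in batch 3, where the lowest adjusted p of the 29 in limma was 0.0532.

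In the ATAC-seq, a gene was given a start-site peak when a peak of the library reached within 1500 bases of any annotated start. All 133 channel genes had annotated start sites. A peak was present in all 6 libraries at 92 of them, 69.2% against 58.2% of 24260 annotated genes, and in no library at 23, 17.3% against 32.4%. Among genes tested in the RNA of batch 1, the share with a peak in all 6 was 81.3% for the channel genes and 84.8% for all genes. Presence moved with RNA level. Of the 44 channel genes with at least 100 normalized counts per kb in batch 1, 43 had a peak in all 6 libraries. Of the 22 under 1 per kb, 5 had a peak in all 6 and 13 had none. These shares were 97.7% and 22.7%, against 93.8% and 10.8% of all genes. In the classes between them the order was the opposite, with 81.0% against 85.5% at 10 to 100 per kb and 40.0% against 46.9% at 1 to 10 per kb. Among the genes with no peak were the peripheral and muscle sodium channels Scn4a, Scn10a and Scn11a, and also Kcnj13 and Kcnk18.

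The promoters at both ends of this range are shown for a view of their base composition. Each is the 250 bases before the RefSeq start site in GRCm38.p6, read 5′ to 3′ on the strand of the gene, with CpG dinucleotides in capitals. Scn2b and Cacna2d2 had a peak in the FANS libraries alone, Cacna2d1 had a peak in all 6 libraries and Kcnk18 in none. The regions are chr9:45117626-45117875 for Scn2b, chr9:107399630-107399879 for Cacna2d2, chr5:15934441-15934690 for Cacna2d1 and chr19:59219398-59219647 for Kcnk18, all on the plus strand and upstream of the first exon.
Scn2b: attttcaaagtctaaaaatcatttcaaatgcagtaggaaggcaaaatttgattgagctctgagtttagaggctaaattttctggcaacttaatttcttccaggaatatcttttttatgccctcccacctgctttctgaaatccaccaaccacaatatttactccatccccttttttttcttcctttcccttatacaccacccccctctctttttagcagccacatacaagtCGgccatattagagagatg
Cacna2d2: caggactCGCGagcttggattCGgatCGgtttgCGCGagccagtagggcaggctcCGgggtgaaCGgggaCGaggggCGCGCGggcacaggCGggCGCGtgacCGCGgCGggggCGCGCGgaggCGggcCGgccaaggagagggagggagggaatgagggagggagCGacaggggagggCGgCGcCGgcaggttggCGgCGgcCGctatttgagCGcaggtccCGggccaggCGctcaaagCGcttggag
Cacna2d1: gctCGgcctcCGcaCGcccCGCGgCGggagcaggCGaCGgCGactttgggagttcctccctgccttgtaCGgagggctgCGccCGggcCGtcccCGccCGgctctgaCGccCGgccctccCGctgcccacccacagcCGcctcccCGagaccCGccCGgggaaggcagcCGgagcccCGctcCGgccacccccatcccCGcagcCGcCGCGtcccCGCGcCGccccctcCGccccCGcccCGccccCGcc
Kcnk18: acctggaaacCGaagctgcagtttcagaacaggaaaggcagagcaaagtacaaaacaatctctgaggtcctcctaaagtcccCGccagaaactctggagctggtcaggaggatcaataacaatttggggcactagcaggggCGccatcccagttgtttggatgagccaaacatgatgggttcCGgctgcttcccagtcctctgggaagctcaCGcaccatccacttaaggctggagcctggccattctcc

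The Scn2b promoter held 1 CpG and 38.4% G and C, the Kcnk18 promoter 5 and 53.6%, the Cacna2d2 promoter 34 and 74.4% and the Cacna2d1 promoter 36 and 82.4%. RefSeq promoter sequences of 300 bases (250 before to 50 after the start) were matched for 98 of the 133 genes, with 133 start sites in all. The median number of CpG was 9 over these against 13 over 21803 promoters of all genes in the tables. It was 12.5 at the channel genes with a peak in all 6 libraries and 4.5 at those with none. On either strand, the Sp1 box GGGCGG was found in 45.9% of the channel promoters and in 46.5% of all promoters, the CCAAT box in 29.3% and 38.3%, the TATA box TATAAA in 4.51% and 12.3%, and the ETS motif CCGGAAG in 2.26% and 11.5%. Several promoters may belong to the same gene, and a match is a description of the letters only.

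Where they were present, the start-site peaks of channel genes were low. The height of a peak is its fold enrichment over the local background as the peak caller gave it, and depth is unknown for these libraries. The median height was 8.34 to 8.49 at the channel genes in the FANS libraries against 13.7 to 13.8 at all genes with a start-site peak, and 6.48 to 7.57 against 10.7 to 12.7 in the INTACT libraries. The median channel gene stood at the 19.9th to 23.6th percentile of these genes, depending on the library. The channel genes with high RNA levels also had low peaks. Among genes with at least 100 normalized counts per kb and a peak in all 6 libraries, the median percentile was 26.2 for channel genes and 58.3 for all genes. The 5 such channel genes under 1 per kb had a median percentile of 56.4, against 30.0 for all genes of that class. Across the 92 channel genes with a peak in all 6, the Spearman correlation of level and height was -0.20, against 0.17 across 14130 genes.

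Cacna2d1, the gene with the highest RNA level, had heights of 6.89, 6.68 and 7.09 in FANS and of 6.25, 5.99 and 6.80 in INTACT. All of these lay between the 15.4th and 17.4th percentile. Kcnma1 had 6.22, 6.198 and 6.83 against 5.07, 4.51 and 6.21. Kcnip4, in contrast, had 14.4, 15.5 and 15.3 against 12.4, 11.1 and 13.9, between the 52.8th and 60.5th percentile. The highest median percentile was that of Kcnk5, a leak channel of epithelia, with 18.4, 17.2 and 22.5 in FANS and 15.4, 15.9 and 19.4 in INTACT, although its RNA level was 0.135 normalized counts per kb in batch 1.

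**Figure D5:**
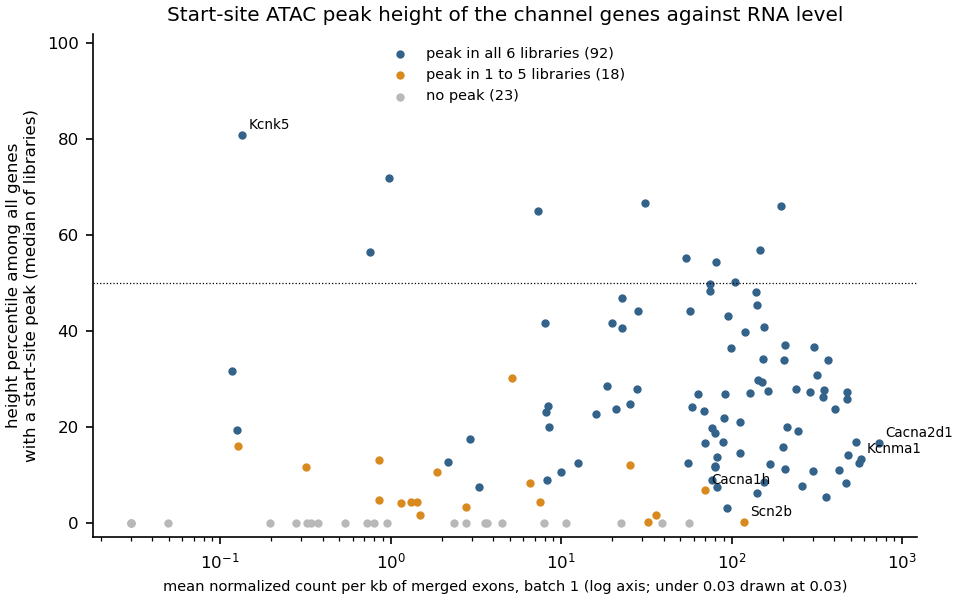
Height percentile of the start-site ATAC peak of each channel gene among all genes with a start-site peak (median over the libraries with a peak, genes without a peak drawn at 0) against its RNA level in batch 1 in normalized counts per kb on a log axis. Of the channel genes with a peak in all 6 libraries, most of those over 1 per kb lay below the dotted line at the 50th percentile, and Scn2b was the gene over 100 per kb without a peak in all 6 libraries.

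Peaks were lower in the INTACT libraries at channel genes as at other genes. The INTACT height was a median of 0.853 of the FANS height at the 92 channel genes with a peak in all 6 libraries, against 0.855 at all 14130 such genes. All 3 INTACT libraries lay below all 3 FANS libraries at 45 of the 92, 48.9% against 54.7% of all genes, and above them at 0, against 1.49%. With 3 libraries against 3 from the same biological source, an exact two-sided permutation test cannot give a p-value below 0.1, so no call was made. At Kcnt1, whose RNA was enriched in INTACT in batches 1 and 3, the heights were 10.1, 9.93 and 10.04 in FANS and 6.11, 4.84 and 5.28 in INTACT.

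At 4 channel genes a start-site peak was present in all FANS libraries and no INTACT library, namely Scn2b, Cacna2d2, Kcna7 and Kcnk6, and the reverse was found at 0. Over all genes these numbers were 383 and 33 of 24260. The heights at these genes were low in FANS, with 2.104, 2.76 and 1.88 at Scn2b, 3.39, 5.80 and 6.41 at Cacna2d2, 3.39, 6.92 and 5.81 at Kcna7 and 4.97, 5.24 and 4.20 at Kcnk6. Scn2b had 98.6 normalized counts per kb in FANS and 139 in INTACT in the RNA of batch 1, so its RNA was higher in the technique without a listed peak. Cacna1h had a peak in 5 of 6 libraries, with heights of 4.58, 4.79 and 4.81 in FANS and of 3.22 and 3.80 in INTACT replicates 2 and 3.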

How the data were processed

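For the RNA-seq, the authors mapped reads to mm10 with STAR, collapsed duplicates using molecular identifiers and counted genes with HTSeq. The deposited signal is the read count of a gene after division by 1 DESeq size factor a library, set within each batch, and multiplying back gave whole reads for 100% of values, within 0.006 counts plus 0.01% of the value, a test that is informative for low values (also 100% at values up to 100). For the ATAC-seq, the deposited lists hold MACS2 peaks called in each library on mm10, with the fold enrichment of the summit and its -log10 significance as a p-value and a q-value, and a score that was not used.

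Within each batch, techniques were compared with limma 3.58.1 in R 4.3.3 (lmFit, eBayes, trended prior). Values were log2(normalized count + 1), and genes needed a mean of 5 or more. edgeR 4.0.16 and DESeq2 1.42.0 on the whole reads, other filters, scalings and left-out libraries served as alternatives. Gene span, exons and start sites came from the curated RefSeq transcripts of GRCm38.p6. No label says that replicate numbers pair the libraries, and the correlations of their deviations ran from -0.07 to 0.11. In batch 3, the libraries of numbers 1, 2 and 5 were closest to each other, so pairing was not settled there. The 5 summary rows, which hold 71.3 to 85.1% of reads outside gene features in their largest row, stayed out of the tests. In batch 2, 2 replicate numbers were not analysed here.

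Named are the 6 genes with the largest change per batch and direction among called genes whose mean reached 50, every gene past 1.5-fold, the top gene of each subfamily, the 4 longest and 4 shortest, up to 5 genes a pair of batches by interaction, those with peaks in 1 technique alone, and a fixed list. The members and lists were chosen with earlier results of these data known. Cacna1d, Cacna1f, Cacna1g, Cacna1s, Cacna2d4, Cacnb3, Kcna4, Kcng3, Kcnj1, Kcnj9, Kcnk5, Scn4a, Scn7a, Scn10a, Scn11a and the promoters shown were picked after their values were seen. Values of some genes are not reported here.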

Additional observations from a re-analysis of the deposited data

Results flagged for a closer look

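Some libraries stood apart from the others of their group for a reported gene. In batch 1, Kcnip4 had 711 normalized counts in FANS replicate 3 against 581 to 585 in the other FANS libraries. In FANS replicate 4 of batch 1, Kcnk18 had 19.9 against 10.9 to 12.3, Cacna2d1 had 5169 against 4937 to 4975 and Kcnf1 had 399 against 329 to 341. Kcnj13 had 56.45 in INTACT replicate 3 of batch 1 against 41.0 to 42.8, and Kcnt1 had 1752 in FANS replicate 5 of batch 2 against 2001 to 2142. These are 6 of 96 groups examined, and chance flags about 1 in 20 groups.

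The difference between techniques was not the same in all batches for 8 channel genes between batches 1 and 2 and 27 between batches 1 and 3 by the interaction term of limma, of which the 5 with the largest difference in each pair are given. Between batches 1 and 2, the difference in log2 fold change (batch 1 minus batch 2) was -2.43 for Kcnk18 (adjusted p = 0.00695), -0.75 for Kcnip4 (adjusted p = 0.000457), -0.47 for Scn9a (adjusted p = 0.035), -0.45 for Kcnj6 (adjusted p = 0.00226) and -0.42 for Kcnc1 (adjusted p = 0.00677). Between batches 1 and 3, the difference (batch 1 minus batch 3) was -2.22 for Kcnk18 (adjusted p = 0.00363), -0.98 for Kcnip4 (adjusted p = 8.72e-07), -0.96 for Kcnj13 (adjusted p = 0.00108), 0.67 for Kcnf1 (adjusted p = 0.00126) and 0.67 for Scn2b (adjusted p = 0.000254). Kcnk18 passed the minimum mean in batch 1 through its FANS libraries alone, so its differences are a description. The INTACT libraries of batch 1 also held more reads on genes than any other group. The paper describes batch 1 as its batch of high RNA integrity, with lower values in batches 2 and 3. The part of read number or of RNA integrity in the differences was not tested.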

How the results depend on the processing

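Cacna1h kept its call in batches 1 and 3 under every alternative run, and in batch 2 under all but the replicate block (adjusted p = 0.118). Of the 47 channel genes called in batch 1, 36 kept their call and direction under all alternatives, and no called gene of any batch changed sign. With the replicate block, 44 genes were called in batch 1, all among the 47, 0 were called in batch 2, and 7 enriched and 6 depleted genes were called in batch 3. Over all genes, the block gave 5251, 3 and 1102 calls in batches 1, 2 and 3, against 5458, 170 and 246 without it. By the correlations, 3 of 12 numbers had libraries that were closest to each other, all 3 in batch 3. The numbers thus did not pair the libraries of batches 1 and 2, and pairing in batch 3 was not settled. These values say nothing of a weaker effect.

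In batch 1, the correlation with span was -0.31 with a pseudocount of 5, -0.38 at a mean of at least 50, -0.27 after quantile normalization and -0.11 with the longest transcript. 2 genes were enriched past 1.5-fold with no filter, and the difference in the share of gene reads became 0.0232 percentage points with Scn2a1. In batch 2, 2 genes were enriched with a pseudocount of 5, 2 at a mean of at least 50 and 4 with DESeq2, and the correlation with span was -0.30 at a mean of at least 50 and -0.0481 with the longest transcript. The cause was not tested.

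Leaving out 1 library gave the following ranges in batch 1: 1 to 3 genes enriched past 1.5-fold (3 without FANS replicate 4, 2 without FANS replicate 2 or INTACT replicate 2), 3 to 5 depleted (5 without FANS replicate 1 or INTACT replicate 1), and correlations with span of -0.32 to -0.28. In batch 2, it gave 1 to 5 enriched genes (5 without FANS replicate 5, 2 without FANS replicate 4) and 0 to 2 past 1.5-fold (2 without FANS replicate 5). In batch 3, it gave 2 to 5 enriched genes (2 without INTACT replicate 3 or 5), correlations with span of -0.113 to 0.036, and 0 to 1 depleted (1 without FANS replicate 4 or 7). The number of genes with a start-site peak in all 6 libraries or in none stayed within 1.5 times its value under the narrower window, the stricter q-value, the summit rule and each left-out library. Counts of under about 10 reads, as at Kcnk18, and the unknown ATAC-seq depth limit the precision.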
